A study of Mus musculus with 9 samples.

Results

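Transcripts of the oligodendrocyte lineage were followed in laser-captured motor neurons (MNs) through 9 genes, taken by their symbol in the platform annotation with the brightest transcript cluster standing for each gene. They are the precursor genes Pdgfra, Cspg4, Gpr17, Olig1 and Olig2 and the myelin genes Mbp, Mog, Mag and Cnp, among 30184 genes that the array names. Each of the 9 symbols occurs in 1 cluster only. The Pdgfra cluster also carries the symbol Mir7025, a microRNA gene that lies within Pdgfra in GRCm38.p6, so that 8 of the 9 genes have a cluster of their own and the Pdgfra cluster is given separately and is not counted.

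The MNs came from 9 wild-type FVB mice of 1 litter, and each mouse gave 1 array. EDL MNs (mice M11, M14 and M33) innervate the extensor digitorum longus and belong to a pool that resists spinal muscular atrophy (SMA), GS MNs (M13, M30 and M31, abbreviated GC in the labels) innervate the gastrocnemius and are intermediate, and TA MNs (M0, M1 and M3) innervate the tibialis anterior and are vulnerable. All mice were untreated apart from the tracer: at postnatal day 14, WGA-HRP, a lectin coupled to peroxidase that reaches the cell body by retrograde transport, was given as 1 µl in the EDL or 3 µl in the GS or TA, and the spinal cords were taken after 48 h. All stained MNs of a mouse were cut out together, so an array holds the RNA of many MN cell bodies and of whatever lies in the cut tissue. The labels give 20 µm sections of cervical cord, whereas the methods give 35 µm sections and place these MNs in the lumbar cord, and the design text speaks of normal mice on an SMA background. All EDL and GS mice have numbers above those of the TA mice, and the sources used here do not explain the numbering.

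Oligodendrocytes arise from precursors that carry the growth factor receptor Pdgfra and the proteoglycan Cspg4 (also called NG2). Olig1 and Olig2 encode basic helix-loop-helix transcription factors that the lineage keeps from precursor to mature cell, and Olig2 also acts in the progenitors of MNs in the embryo. Gpr17 encodes a G protein-coupled receptor of precursors that have left the cell cycle and are about to mature, and it is lost again as myelin forms. Mature cells wrap axons in myelin, whose proteins include Mbp, which compacts the membrane layers, Mag, an adhesion molecule that faces the axon, Mog, which lies on the outer surface, and Cnp, a cyclic nucleotide phosphodiesterase of the non-compact layers. Oligodendrocytes and their precursors also sit directly against MN cell bodies, where they are called satellite or perineuronal cells.

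The promoters of Mag, Mog and Cnp are shown, and that of Mbp is not. Over the arrays Mog and Cnp varied together (Pearson r of 0.91), whereas Mag had 0.02 with Mog and 0.15 with Cnp. Each line is the 250 bases before the first transcription start of the gene, 5′ to 3′ on its own strand, from RefSeq (GRCm38.p6). Capitals mark the E-box CANNTG, the kind of site that Olig1 and Olig2 bind, and the letters ACAAAG or their reverse complement CTTTGT, the kind of site that SOX factors such as Sox10 bind; both strands were searched and no marked sites overlap.
Mag (chr7:30914923-30915172, minus strand): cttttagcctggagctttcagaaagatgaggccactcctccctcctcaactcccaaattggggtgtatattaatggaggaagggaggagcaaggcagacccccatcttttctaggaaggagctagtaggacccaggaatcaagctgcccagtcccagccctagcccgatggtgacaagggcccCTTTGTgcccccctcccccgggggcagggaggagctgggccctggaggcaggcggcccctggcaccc
Mog (chr17:37023399-37023648, minus strand): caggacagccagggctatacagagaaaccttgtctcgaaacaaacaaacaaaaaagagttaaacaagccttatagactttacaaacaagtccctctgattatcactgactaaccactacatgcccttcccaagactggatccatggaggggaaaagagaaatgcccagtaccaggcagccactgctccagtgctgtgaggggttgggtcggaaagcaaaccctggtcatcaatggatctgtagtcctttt
Cnp (chr11:100574689-100574938, plus strand): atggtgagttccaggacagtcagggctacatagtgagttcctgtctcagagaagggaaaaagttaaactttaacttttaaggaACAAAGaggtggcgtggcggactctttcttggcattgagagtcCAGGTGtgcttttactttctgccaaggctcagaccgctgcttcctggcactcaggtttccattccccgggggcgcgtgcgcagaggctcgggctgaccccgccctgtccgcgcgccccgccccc
The Mag window holds CTTTGT at position -67 from the start, the Cnp window holds ACAAAG at -167 and the E-box CAGGTG at -124, and the Mog window holds neither. Of 32851 such windows, 66.2% hold an E-box and 16.5% hold ACAAAG or CTTTGT, so these matches are a description and nothing more.

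Values are log2 signals of transcript clusters as the authors deposited them, and levels are compared between arrays for 1 cluster at a time, never between genes. Pools were compared with limma over 65956 clusters with a single spread from all 9 arrays, and a difference was called at a Benjamini-Hochberg adjusted p under 0.05. The p-values rest on the spread of littermates within a pool. On the first principal component (56.5% of the variance) EDL mice lay at -45.6 to -35.6, GS mice at -27.3 to -12.0 and TA mouse M3 at 8.72, while TA mice M0 and M1 lay far from these 7, at 77.3 and 98.5. The separation of positive from negative control probe sets was poorer on M0 and M1 too (area under the curve 0.779 and 0.778, against 0.828 to 0.854 on the other arrays). Results are therefore also given without M0 and M1, which leaves M3 alone for the TA pool, assumed to vary like the other mice. Because each array is a bulk sample, fewer cells of a type and less RNA per cell cannot be told apart.

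Myelin transcripts were well measured in the captured material. Of the 4 myelin genes, 3 (Mbp, Mag and Mog) lay above the 95th percentile of the negative control probe sets on all 9 arrays, as did 2153 of the named genes (7.13%). Cnp reached that level on 1 array and lay above 84.5% to 95.3% of the negative controls. Of the precursor genes, Gpr17 lay above the 95th percentile on all 9 arrays. The others lay above the negative median but under the 95th percentile on every array: Olig1 was above 82.1% to 90.3% of the negative controls, Olig2 above 84.8% to 93.5%, the Pdgfra cluster above 69.4% to 78.9% and Cspg4 above 57.4% to 66.1%. The levels of these dim clusters therefore overlap with those of the brighter negative controls.

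Gpr17 was the only gene of the 8 to pass the test between EDL and TA MNs. Its cluster (TC1800001119.mm.1) had log2 signals of 10.46, 10.34 and 10.62 in EDL mice M11, M14 and M33, of 10.87, 10.77 and 10.37 in GS mice M13, M30 and M31, and of 12.23, 11.58 and 11.18 in TA mice M0, M1 and M3. Every EDL and every GS mouse lay below every TA mouse, and M0 was the highest of all. The 95th percentile of the negative controls also rose, from 9.62 to 9.74 in EDL mice and 9.85 to 10.06 in GS mice. In TA mice M0, M1 and M3 it was 10.86, 11 and 10.12. Against the negative controls of each array, Gpr17 lay above 95.8% to 97.6% of them. The part of this background in the Gpr17 signals was not tested. Gpr17 fell in EDL to 10.47 ± 0.14 (SD, n = 3 mice), against 11.66 ± 0.53 in TA, a difference of -1.19 on the log2 scale (standard error 0.26, 95% interval -1.80 to -0.58, limma adjusted p = 0.0475), so that EDL signal was 0.438 times TA signal. This is 1 of 8 genes in a comparison that called 5.08% of all clusters (2.22% lower and 2.86% higher in EDL), and 14.5% of all clusters had every EDL mouse below every TA mouse. It was also the only one of the 8 with an unadjusted p under 0.05 (0.00224), as had 22.8% of all clusters, 6062 of them higher and 9004 lower in EDL (9780 and 6103 with arrays centred on their medians). The call was close to the threshold: it was kept in 5 of 16 alternative settings, with adjusted p between 0.00852 and 0.183, and was lost when any EDL or GS mouse, TA mouse M0 or TA mouse M1 was left out. The direction was the same in all 16, with -1.43 without M3 (adjusted p = 0.00852), -0.91 without M0 (adjusted p = 0.0655) and -0.71 without both M0 and M1. Without M3, 10470 of the 65956 clusters were called, against 3351 with all mice.

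**Figure D1:**
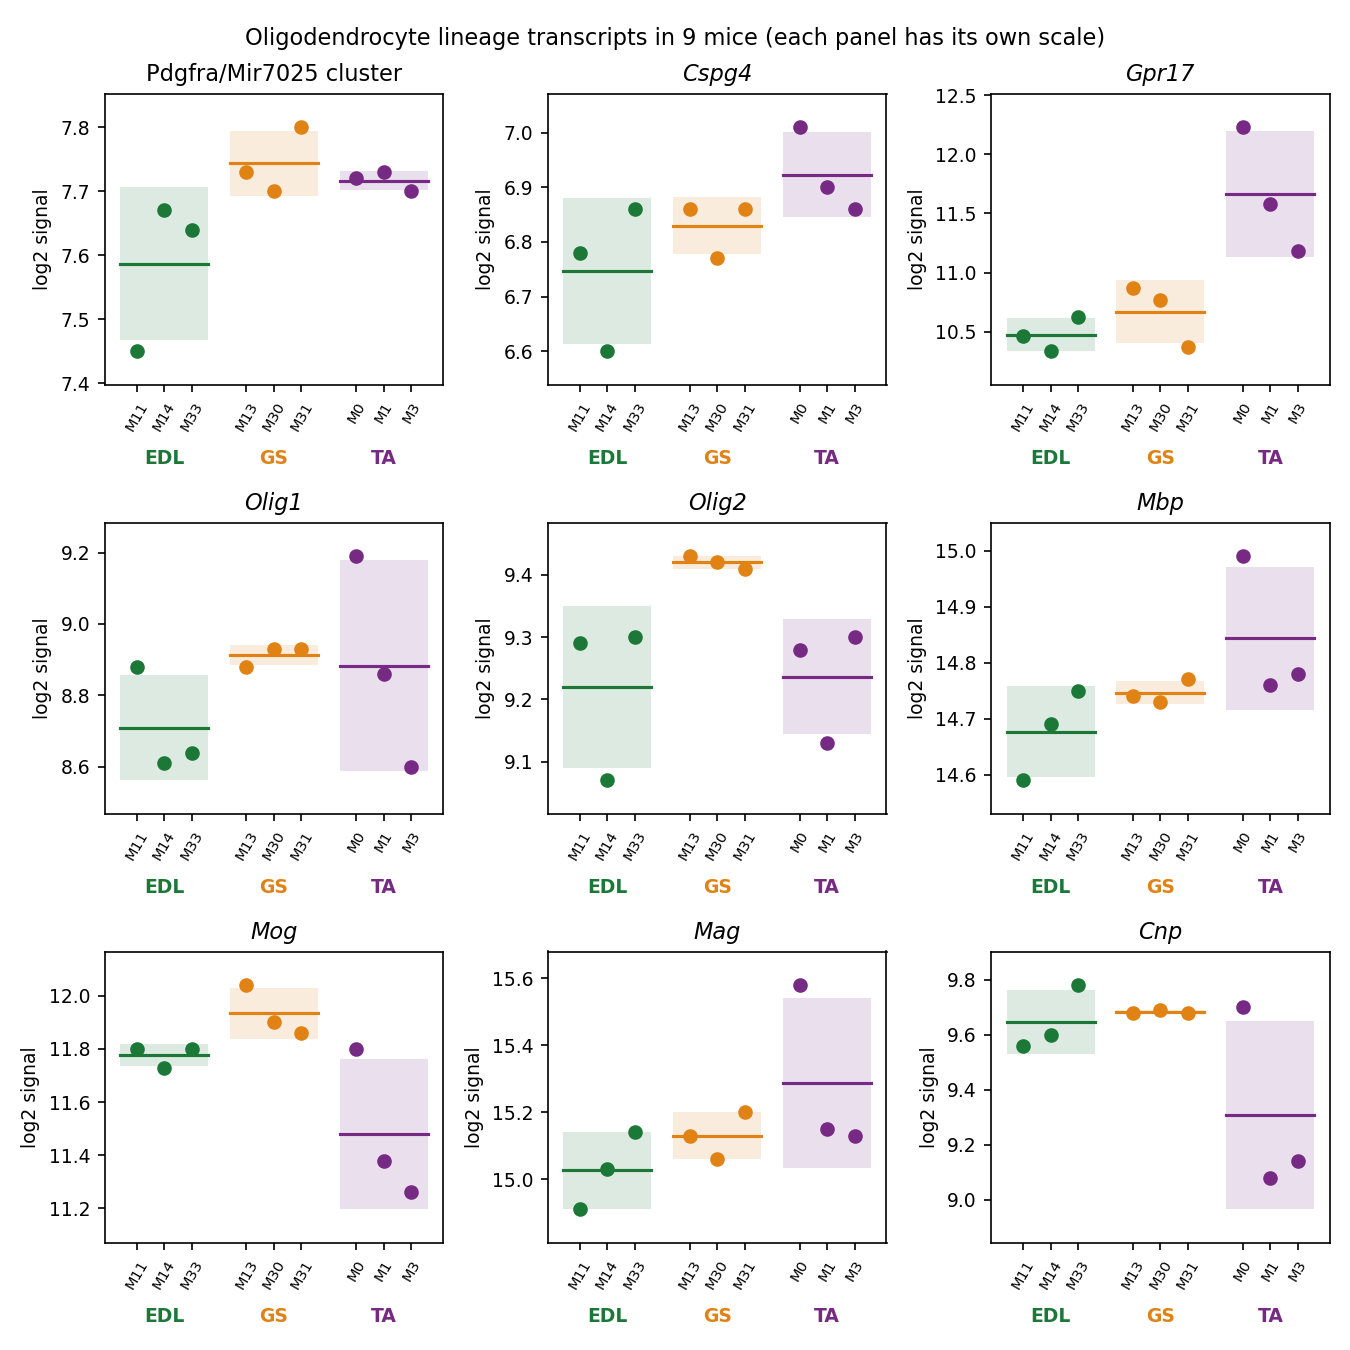
Log2 signal of the 9 clusters in each mouse (points, named below the axis) of the EDL, GS and TA pools, with the pool mean (line) and SD (shaded band, n = 3 mice). Gpr17 lies at 10.34 to 10.87 in the EDL and GS mice, below each TA mouse, at 11.18 to 12.23; Mog and Cnp are lower in TA mice M1 and M3 but not in M0.

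The other precursor genes moved by much less. Cspg4 (TC0900000686.mm.1) had 6.78, 6.60 and 6.86 in EDL mice, 6.86, 6.77 and 6.86 in GS mice and 7.01, 6.90 and 6.86 in TA mice. The pools touch at 6.86, with M0 again the highest mouse. Its EDL-TA difference was -0.18 (95% interval -0.36 to 0.00, adjusted p = 0.22). Olig1 (TC1600000999.mm.1) had 8.88, 8.61 and 8.64 in EDL mice, 8.88, 8.93 and 8.93 in GS mice and 9.19, 8.86 and 8.60 in TA mice, where the TA mice spanned all the others. The EDL-TA difference of Olig1 was -0.17 (95% interval -0.51 to 0.17, adjusted p = 0.531), and it turned to 0.11 without M0 and M1. Olig2 (TC1600000998.mm.1) had 9.29, 9.07 and 9.30 in EDL mice, 9.43, 9.42 and 9.41 in GS mice and 9.28, 9.13 and 9.30 in TA mice. EDL and TA overlapped fully for Olig2, at a difference of -0.02 (95% interval -0.19 to 0.16, adjusted p = 0.929; 0.07 with centred arrays and 0.03 after quantile normalization), and the 3 GS mice lay above both pools. The Pdgfra cluster, shared with Mir7025, had 7.45, 7.67 and 7.64 in EDL mice, 7.73, 7.70 and 7.80 in GS mice and 7.72, 7.73 and 7.70 in TA mice. Its EDL mice were the lowest, at a difference from TA of -0.13 (95% interval -0.28 to 0.01, adjusted p = 0.264; 0.03 after quantile normalization).

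The myelin genes went 2 ways between EDL and TA MNs, and none of the 4 passed the test. Mbp and Mag had their highest values in TA. Mbp (TC1800000869.mm.1) had 14.59, 14.69 and 14.75 in EDL mice, 14.74, 14.73 and 14.77 in GS mice and 14.99, 14.76 and 14.78 in TA mice. Every EDL mouse lay below every TA mouse for Mbp, though the nearest lay at 14.75 and 14.76, and the difference was -0.16 (95% interval -0.33 to 0.00, adjusted p = 0.223), with -0.09 without M0, -0.08 with centred arrays and -0.31 after quantile normalization. Mag (TC0700002780.mm.1) had 14.91, 15.03 and 15.14 in EDL mice, 15.13, 15.06 and 15.20 in GS mice and 15.58, 15.15 and 15.13 in TA mice. Only M0 stood above the EDL and GS mice for Mag, and the EDL-TA difference of -0.26 (95% interval -0.55 to 0.04, adjusted p = 0.277) came to -0.11 without M0 and to -0.10 without M0 and M1.

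Mog and Cnp had their lowest values in TA. Mog (TC1700002050.mm.1) had 11.80, 11.73 and 11.80 in EDL mice, 12.04, 11.90 and 11.86 in GS mice and 11.80, 11.38 and 11.26 in TA mice. TA mice M1 and M3 lay below every other mouse, while M0 lay at the level of the EDL mice. The EDL-TA difference of Mog was 0.30 (95% interval -0.01 to 0.61, adjusted p = 0.234) and shrank to 0.10 after quantile normalization (adjusted p = 0.786) and to 0.19 without M3 (adjusted p = 0.362). Cnp (TC1100001628.mm.1) had 9.56, 9.60 and 9.78 in EDL mice, 9.68, 9.69 and 9.68 in GS mice and 9.70, 9.08 and 9.14 in TA mice, and again M1 and M3 lay below all other mice and M0 among them. Its EDL-TA difference was 0.34 (95% interval -0.03 to 0.71, adjusted p = 0.25). Whether they passed turned on M0: with that mouse left out, Mog had a difference of 0.46 (adjusted p = 0.0366) and Cnp one of 0.54 (adjusted p = 0.028). With M1 left out as well, Mog had 0.51 (adjusted p = 0.0551) and Cnp 0.51 (adjusted p = 0.065). The promoter window of Mog holds no marked site, and those of Mag and Cnp hold the SOX letters, as do 16.5% of all windows. Whether the marked sites bear on the signals was not tested.

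**Figure D2:**
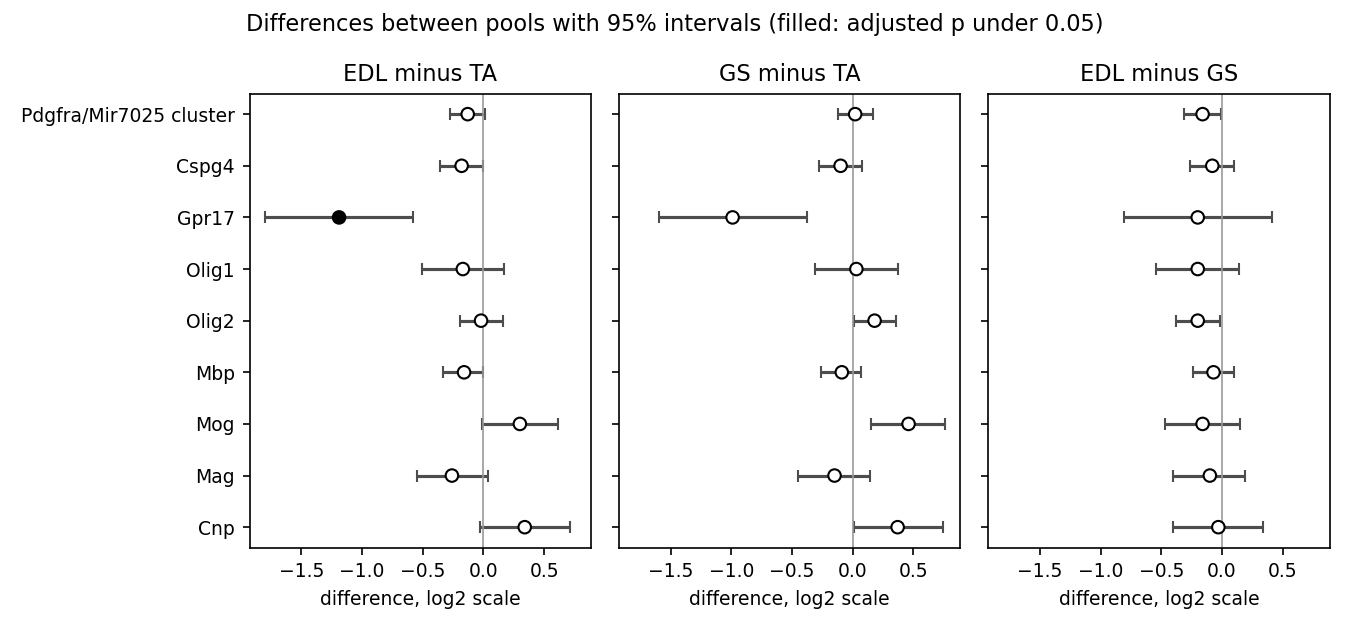
Difference between pool means on the log2 scale (circles) with the 95% interval of the limma fit (bars) for each cluster, in EDL minus TA, GS minus TA and EDL minus GS; a filled circle has an adjusted p under 0.05. Only Gpr17 in EDL minus TA is filled, at -1.19, and the intervals of the other clusters in that comparison reach 0 or cross it.

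Between GS and TA MNs none of the 8 genes passed the test, in a comparison that called 0.634% of all clusters. At an unadjusted p under 0.05, Gpr17 was lower in GS, as were 8.31% of all clusters, and Mog, Cnp and Olig2 were higher, as were 7.42%. Gpr17 averaged 10.67 ± 0.26 in GS and 11.66 ± 0.53 in TA, a difference of -0.99 (95% interval -1.60 to -0.38, adjusted p = 0.133), with no overlap between the pools, as for 8.09% of all clusters in that direction. It was called without TA mouse M3 (-1.24, adjusted p = 0.0202), and it came to -0.51 without M0 and M1. Without M3, 7177 of the 65956 clusters were called between GS and TA, against 418 with all mice. Mog averaged 11.94 ± 0.09 in GS and 11.48 ± 0.28 in TA, 0.46 higher in GS (95% interval 0.15 to 0.76, adjusted p = 0.164), and was called without M0 (0.62, adjusted p = 0.0456). Both Mog and Olig2 had every GS mouse above every TA mouse, as had 7.53% of all clusters. The intervals for Cnp (0.37, 0.01 to 0.74, adjusted p = 0.311) and Olig2 (0.18, 0.01 to 0.36, adjusted p = 0.305) did not reach 0 before adjustment, whereas those for Cspg4 (-0.10, -0.28 to 0.08), Olig1 (0.03, -0.31 to 0.37), Mbp (-0.09, -0.26 to 0.07) and Mag (-0.15, -0.45 to 0.14) did.

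Between EDL and GS MNs no gene and no cluster passed the test (0% of clusters at an adjusted p under 0.05, and 2421 clusters, 3.67%, at an unadjusted p under 0.05). Of the 8 genes, Olig2 had an unadjusted p under 0.05, at -0.20 (95% interval -0.38 to -0.02), in a comparison with 2.16% of clusters lower and 1.51% higher in EDL at that threshold. The mean of each of the 8 was lower in EDL than in GS, by 0.03 for Cnp to 0.20 for Gpr17, Olig1 and Olig2, but Cnp changed direction with centred arrays (0.01). Every EDL mouse lay below every GS mouse for Olig1, Olig2 and Mog, as for 6.65% of all clusters, and for none of the 8 did every EDL mouse lie above every GS mouse, as for 5.18%. Over the 3 pools together, limma's F test called none of the 8 genes and 1.59% of all clusters, and Gpr17 had the lowest adjusted p of the 8 (0.099).

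The myelin genes formed 2 pairs across the 9 arrays, which share a litter and a platform and differ in array quality as given above. Mbp and Mag had a Pearson r of 0.98 with each other, and Mog and Cnp one of 0.91. Between these pairs the correlations were near 0, from -0.07 for Mbp and Mog to 0.15 for Mag and Cnp. Gpr17 went with the first pair (0.81 with Mbp and 0.79 with Mag, and 0.77 with Cspg4) and was weakly opposed to the second (-0.34 with Mog and -0.32 with Cnp). Olig1 and Olig2, which lie next to each other in the genome and act together, had an r of 0.35. They went with neither pair alone: Olig1 had 0.53 with Mbp, 0.61 with Mag, 0.42 with Mog and 0.30 with Cnp, and Olig2 had 0.07 with Mbp and with Mag, 0.53 with Mog and 0.43 with Cnp.

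In the TA and EDL pools 1 mouse was the highest for most of the genes, whereas in the GS pool no mouse was the highest in more than 3 of the 8. TA mouse M0 was the highest of the 3 TA mice in 7 of the 8 genes, all but Olig2, while it was the highest in 30.6% of all named genes. EDL mouse M33 was the highest of the EDL mice in 6 of 8, against 29.8% of all named genes, and EDL mouse M14 was the lowest in 5 of 8, against 32.3%. The astrocyte markers followed the same order: M33 was the highest EDL mouse in 11 of 12 and M0 the highest TA mouse in 9 of 12. For the MN markers the order was another one, with M14 the highest EDL mouse in 8 of 12 and M3 the highest TA mouse in 11 of 12. Whether the share of glial tissue in a capture sets the level of the 8 genes was not tested.

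Other genes of the lineage were read from lists of genes with known roles. Of all 30184 named genes, 1435 rose and 292 fell in EDL against TA, 15726 had the lower mean in EDL, and the median difference was 0.00. Of 13 measured further genes of precursors, 2 were called lower and none higher, at a median of -0.22. The lower mean was in EDL in 11 of the 13, but in 7 with arrays centred on their medians and in 8 after quantile normalization. When M0 and M1 were left out, none of the 13 was called, 10 had the lower mean in EDL, and the median was -0.08. Vcan, which encodes the matrix proteoglycan versican, had 9.04, 8.80 and 9.08 in EDL mice, 9.38, 9.32 and 9.23 in GS mice and 10.00, 9.80 and 9.49 in TA mice. The 3 pools did not overlap and lay in the order EDL, GS, TA, and Vcan fell by 0.79 in EDL against TA (standard error 0.13, adjusted p = 0.0257). In 14.5% of all clusters every EDL mouse lay below every TA mouse. Vcan lay above 89.4% to 92.9% of the negative controls, under their 95th percentile on every array. That percentile was 9.62 to 9.74 in EDL mice and 10.12 to 11 in TA mice. The part of this background in the Vcan signals was not tested. Tnr, which encodes the matrix protein tenascin-R and is expressed by neurons as well as by oligodendrocytes, had 13.52, 13.45 and 13.52 in EDL mice, 13.45, 13.34 and 13.10 in GS mice and 14.12, 13.96 and 13.93 in TA mice. Tnr was lower than in TA both in EDL (-0.51, adjusted p = 0.0324) and in GS (-0.71, adjusted p = 0.0394). Neither call held without M0 and M1 (Vcan -0.51, adjusted p = 0.121; Tnr -0.43 in EDL, adjusted p = 0.192, and -0.64 in GS, adjusted p = 0.133). Sox6, which encodes a factor that holds precursors back from maturing, was at -0.40 between EDL and TA (adjusted p = 0.17; -0.08 without M0 and M1). Ptprz1, a receptor phosphatase gene of precursors and astrocytes, had 11.54, 11.48 and 11.56 in EDL mice, below all GS mice (11.99, 12.21 and 11.81) and all TA mice (12.11, 11.92 and 11.81), at -0.42 between EDL and TA (adjusted p = 0.0763), and was called after quantile normalization (-0.64, adjusted p = 0.0475). Emid1 and Pcdh15 were at 6.24 and 8.16 on every array to this precision, and of the other 11 genes 10 had the lower mean in EDL.

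Genes of committed and newly formed oligodendrocytes, the stage at which Gpr17 is expressed, were lower on average in EDL than in TA in 10 of 10, with a median of -0.37, but none passed the test, and 15726 of the 30184 named genes had the lower mean in EDL as well. Enpp6, a phosphodiesterase gene of cells that have just begun to differentiate, had 7.87, 7.88 and 7.95 in EDL mice, 8.05, 7.86 and 7.57 in GS mice and 8.84, 8.89 and 7.96 in TA mice. M0 and M1 thus stood above the other 7 mice while M3 lay among them, and the EDL-TA difference of -0.66 (adjusted p = 0.167) came to -0.06 without M0 and M1. Bcas1, a marker of early myelinating cells (-0.41, adjusted p = 0.0961), Itpr2 (-0.44, adjusted p = 0.134) and Cemip2 (-0.62, adjusted p = 0.151) each had -0.14 without M0 and M1, and all 4 were called when M3 was left out (adjusted p from 0.00454 to 0.0181). Without M3, however, 10470 of the 65956 clusters were called, against 3351 with all mice. Without M0 and M1 the median of the list was -0.11, with 9 of 10 still lower in EDL. The number lower was 9 of 10 with arrays centred on their medians and 8 of 10 after quantile normalization. Of the 10 genes, 1 lay above the 95th percentile of the negative controls on all arrays. The medians of the negative controls were 5.98 to 6.12 in EDL and 6.27 to 6.48 in TA, highest on M0 and M1. The part of this background in the list was not tested.

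**Figure D3:**
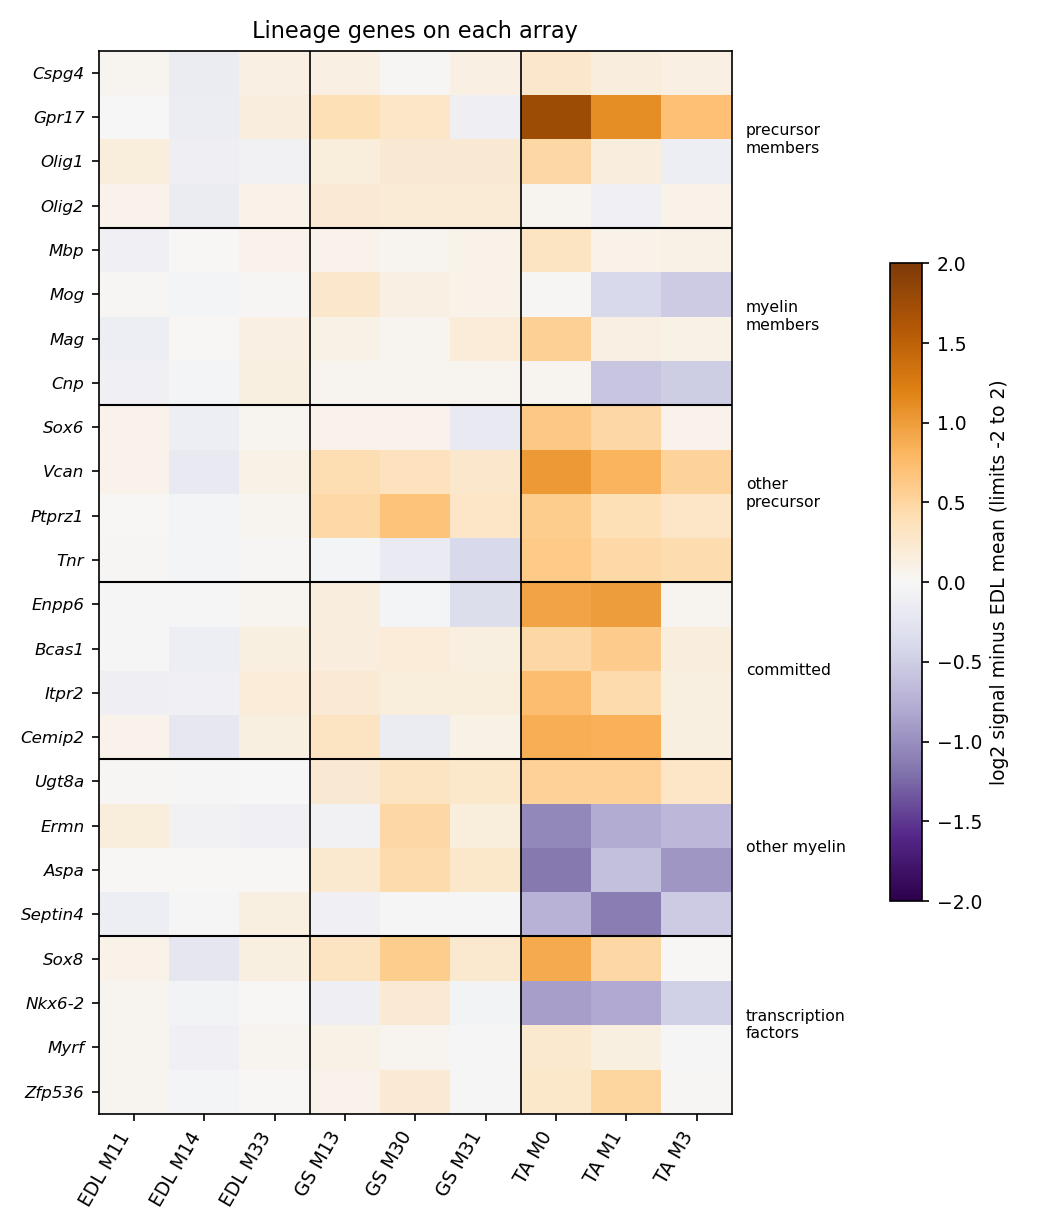
Log2 signal of lineage genes on each array minus the mean of the 3 EDL arrays, by list (rows) and mouse (columns), with the colour scale from -2 to 2. Gpr17, Vcan and the 4 committed genes drawn (Enpp6, Bcas1, Itpr2 and Cemip2) are higher in TA mice M0 and M1 than the EDL mean, whereas Ermn, Aspa, Septin4 and Nkx6-2 are lower than it in all 3 TA mice.

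Of 27 further myelin genes measured, 3 were called higher in EDL than in TA and 1 lower, beside 1435 higher and 292 lower among all named genes. The higher mean was in EDL in 17 of the 27, against 14257 of all 30184, and the median difference was 0.13 (0.21 with centred arrays, 0.08 after quantile normalization). Without M0 and M1, 3 were called higher and none lower, 22 had the higher mean in EDL, and the median was 0.23. Of these 3, Aspa was among those called with all mice, and Opalin (adjusted p = 0.0238) and Ppp1r14a (1.49, adjusted p = 0.0435) were not. Aspa encodes the enzyme that cleaves N-acetylaspartate into acetate for lipid synthesis. It had 11.20 in each EDL mouse, 11.44, 11.64 and 11.48 in GS mice and 10.05, 10.58 and 10.25 in TA mice. Aspa was equal in the 3 EDL mice to 5 decimals (SD 0), and these tied values lower the single spread behind its test. Its EDL-TA difference was 0.90 (standard error 0.13, adjusted p = 0.017) and its GS-TA difference 1.22 (adjusted p = 0.0304). Without M0 and M1, Aspa had 0.94 in EDL and 1.27 in GS against TA. Its spread then came only from the EDL mice (SD 0) and the GS mice (SD 0.11). Ermn, which encodes the cytoskeletal protein ermin of mature oligodendrocytes, had 11.73, 11.49 and 11.48 in EDL mice, 11.50, 12.04 and 11.73 in GS mice and 10.53, 10.78 and 10.88 in TA mice. Ermn rose in EDL (0.84, adjusted p = 0.0305) and in GS (1.03, adjusted p = 0.0456) against TA, with 0.69 (adjusted p = 0.2) and 0.88 (adjusted p = 0.171) without M0 and M1. Septin4, which encodes a filament protein of myelin, had 12.04, 12.12 and 12.29 in EDL mice, 12.06, 12.12 and 12.12 in GS mice and 11.43, 11.04 and 11.62 in TA mice (EDL over TA 0.79, adjusted p = 0.0295; 0.53 without M0 and M1, adjusted p = 0.0773). The gene that went the other way was Ugt8a, which encodes the enzyme for the myelin lipid galactosylceramide. It had 12.88, 12.84 and 12.85 in EDL mice, 13.08, 13.17 and 13.13 in GS mice and 13.39, 13.39 and 13.15 in TA mice, and it fell by 0.45 in EDL against TA (adjusted p = 0.0217; -0.29 without M0 and M1, adjusted p = 0.0592).

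Across the lists named here, the calls between EDL and TA were kept in 3 of 16 alternatives for the astrocyte gene Slc1a2 to 11 of 16 for Aspa, and none of them changed direction. For Aspa and Ermn, M0 lay with M1 and M3, unlike for Mog and Cnp: it had the lowest Aspa and Ermn signals of all 9 mice, although it had the highest Mbp and Mag. The gene of the list with the largest difference, Ppp1r14a, an inhibitor of myosin phosphatase, was picked out after its values were seen: it had 9.63, 9.60 and 9.90 in EDL mice, 10.01, 10.38 and 10.32 in GS mice and 7.83, 9.12 and 8.22 in TA mice, at 1.32 between EDL and TA (adjusted p = 0.0539). It was called with centred arrays (1.40, adjusted p = 0.0346) and after quantile normalization (1.38, adjusted p = 0.0346). Opalin, a membrane protein gene of myelinating cells picked in the same way, had 12.88, 12.93 and 13.03 in EDL mice, 12.95 to 13.12 in GS mice and 12.89, 11.66 and 11.45 in TA mice (0.95, adjusted p = 0.149), with M0 at the level of the other pools and M1 and M3 below, as for Mog and Cnp. Between GS and TA, 19 of the 27 had the higher mean in GS, 2 were called, both higher, and the median was 0.30, beside 182 higher and 44 lower among all named genes. Leaving out M0 and M1, 26 of the 27 had the higher mean in GS, at a median of 0.41, and the 2 called were Aspa and Opalin (1.57, adjusted p = 0.0473). Between EDL and GS none was called, yet 26 of 27 had the lower mean in EDL, at a median of -0.20, while 15589 of the 30184 named genes did.

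Of 10 measured transcription factor genes of the lineage, 1 was called between EDL and TA (median -0.07, and 0.01 with centred arrays). It was higher in EDL, beside 1435 called higher and 292 lower among the 30184 named genes. Nkx6-2, a homeobox gene of maturing oligodendrocytes, had 8.16, 8.05 and 8.12 in EDL mice, 8.01, 8.32 and 8.06 in GS mice and 7.23, 7.30 and 7.64 in TA mice. Nkx6-2 rose by 0.72 in EDL against TA (standard error 0.12, adjusted p = 0.0257) and had 0.74 between GS and TA (adjusted p = 0.0561), but its signal lay above only 63.1% to 84.6% of the negative controls and the EDL-TA call was lost without M0 and M1 (0.47, adjusted p = 0.148). Sox10, the factor that the lineage keeps throughout, had 7.90, 8.14 and 8.14 in EDL mice, 8.35, 8.19 and 8.34 in GS mice and 8.17, 8.09 and 8.04 in TA mice (-0.04 between EDL and TA, adjusted p = 0.811). Myrf, which switches on myelin genes, had an EDL-TA difference of -0.11 (adjusted p = 0.43) that turned to 0.03 without M0 and M1. Sox8 (-0.46, adjusted p = 0.277) had 0.00 and Zfp536 (-0.27, adjusted p = 0.243) had -0.02 without them.

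**Figure D4:**
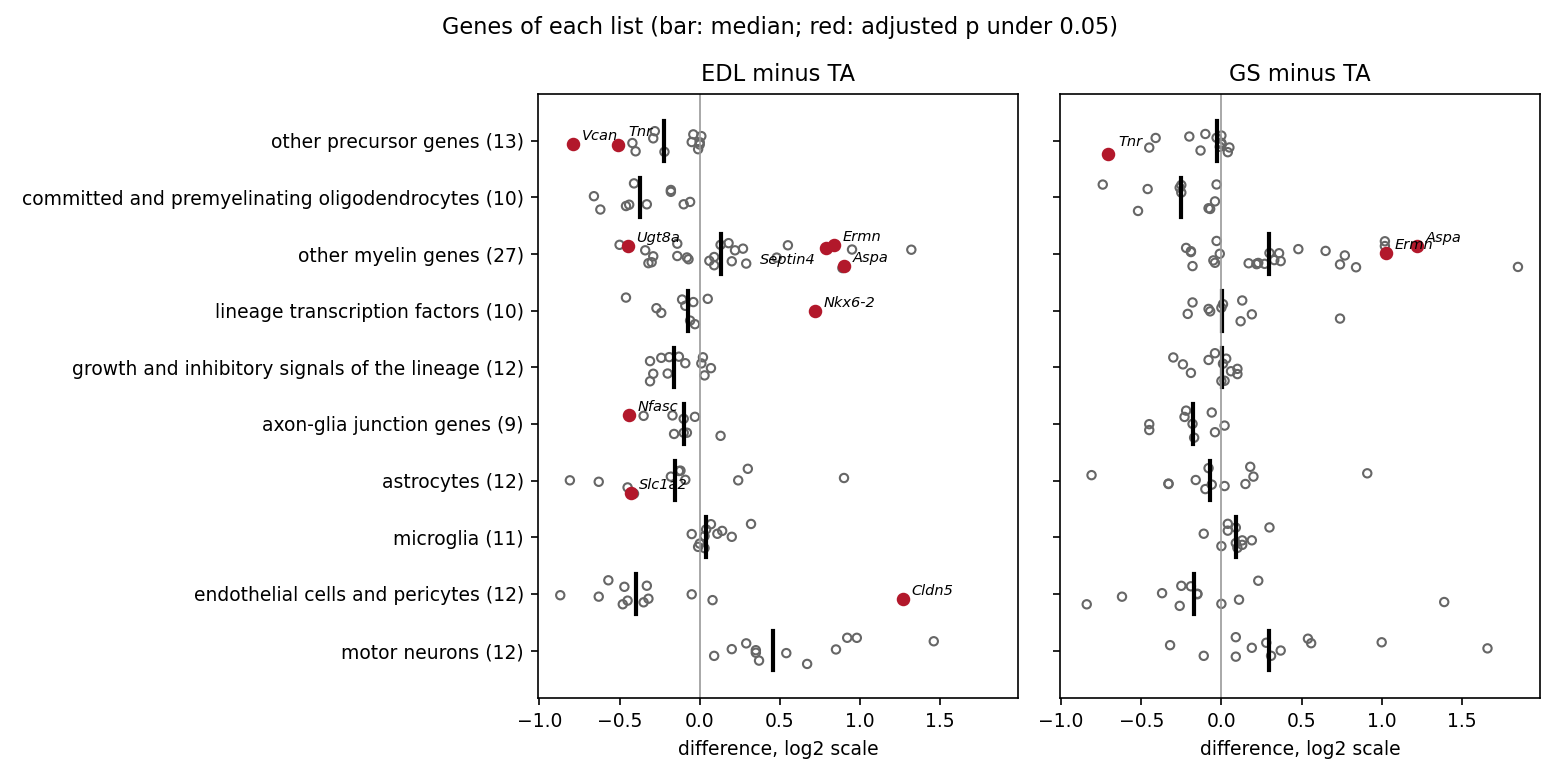
Difference on the log2 scale of each measured gene (circles) in 10 lists, in EDL minus TA and GS minus TA, with the median of the list (bar) and genes at an adjusted p under 0.05 in red and named; the number of genes stands after each list. Medians in EDL minus TA run from -0.40 for endothelial cells and pericytes and -0.37 for committed oligodendrocytes to 0.13 for other myelin genes and 0.45 for MNs.

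Among 12 signals that drive or restrain the lineage, none passed the test between EDL and TA. The median was -0.16, with -0.08 for centred arrays, -0.05 after quantile normalization and -0.10 without M0 and M1. Nrg1, whose product neuregulin is made by MNs and acts on glia, had 12.60, 12.72 and 12.60 in EDL mice, 12.72, 12.71 and 12.72 in GS mice and 12.78, 13.14 and 12.95 in TA mice, at -0.31 between EDL and TA (adjusted p = 0.0871), and was called after quantile normalization (-0.55, adjusted p = 0.0251). The receptor gene Igf1r was at -0.29 (adjusted p = 0.063), Notch1 at -0.20 (adjusted p = 0.176) and the growth factor gene Fgf2 at -0.19 (adjusted p = 0.178). Of 9 genes of the junction between axon and myelin, 1 was called lower in EDL than in TA, and 3 after quantile normalization. The lower mean was in EDL in 8 of 9, in 6 with centred arrays and in 8 after quantile normalization. Among all 30184 named genes, 15726 had the lower mean in EDL and 292 were called lower. Nfasc, which encodes neurofascin in a neuronal and a glial form that its cluster does not separate, had 14.15, 14.20 and 14.27 in EDL mice, 14.28, 14.12 and 14.20 in GS mice and 14.69, 14.74 and 14.51 in TA mice (EDL against TA -0.44, adjusted p = 0.0253, and -0.30, adjusted p = 0.138, once M0 and M1 were left out). The neuronal adhesion genes Cntn1 (-0.16, adjusted p = 0.147) and Cntnap2 (-0.35, adjusted p = 0.0981) passed only after quantile normalization (-0.29, adjusted p = 0.0313, and -0.60, adjusted p = 0.00832), and Gldn, a gene of Schwann cells, was at 0.13 (adjusted p = 0.396).

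Markers of other cells also varied between the pools. Of all 30184 named genes, 14257 had the higher and 15726 the lower mean in EDL than in TA, with 1435 called higher and 292 lower. Of 12 MN markers, 9 lay above the 95th percentile of the negative controls on all arrays. They had the higher mean in EDL than in TA in 12 of 12, none called, and the mean of the list ranged from 12.76 to 12.96 in EDL, from 12.65 to 12.69 in GS and from 11.96 to 12.76 in TA, with M0 at 12.12, M1 at 11.96 and M3 at 12.76. Slc18a3, the vesicular acetylcholine transporter gene, had an EDL-TA difference of 0.92 (adjusted p = 0.0803), and the intermediate filament genes had 1.46 for Prph (adjusted p = 0.0873), 0.67 for Nefl (adjusted p = 0.115) and 0.54 for Nefh (adjusted p = 0.0996). Without M0 and M1, 6 of the 12 MN markers had the higher mean in EDL, at a median of 0.03. Endothelial and pericyte markers went the other way: 10 of 12 had the lower mean in EDL, the mean of the list ranged from 7.95 to 8.24 in EDL, from 8.22 to 8.42 in GS and from 8.26 to 8.61 in TA, and without M0 and M1 the median was still -0.26. The one called was Cldn5, a tight junction gene, which rose in EDL (1.27, adjusted p = 0.0331; 1.33 without M0 and M1, adjusted p = 0.176). Rgs5, a pericyte gene, was called in the other direction without M0 and M1 (-0.75, adjusted p = 0.0491) and after quantile normalization (-0.58, adjusted p = 0.0369). With all mice Flt1 (-0.63, adjusted p = 0.0675), Tek (-0.48, adjusted p = 0.0754) and Slco1a4 (-0.35, adjusted p = 0.0685) had lower means.

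Astrocyte markers had the lower mean in EDL in 9 of 12 (6 of 12 after quantile normalization), beside 15726 of the 30184 named genes. Their list means were 10.25 to 10.56 in EDL, 10.44 to 10.65 in GS and 10.44 to 10.77 in TA. Slc1a2, the main glutamate transporter gene of astrocytes, fell by 0.43 in EDL against TA (adjusted p = 0.0438; -0.38 without M0 and M1, adjusted p = 0.186), Aqp4 was at -0.41 (adjusted p = 0.0711) and Atp1b2 at -0.81 (adjusted p = 0.115), whereas Aldoc was at 0.90 (adjusted p = 0.052). With centred arrays Slc1a2 was no longer called and Aldoc was (0.99, adjusted p = 0.0366). Microglia markers were dim, with none of 11 above the 95th percentile of the negative controls on all arrays and 5 not above their median on any, and list means of 6.55 to 6.59 in EDL, 6.55 to 6.60 in GS and 6.36 to 6.57 in TA. C1qa (0.32, adjusted p = 0.0652), C1qb (0.20, adjusted p = 0.125), Csf1r (0.14, adjusted p = 0.491) and Aif1 (0.07, adjusted p = 0.471) were not called. C1qa was called with centred arrays (0.40, adjusted p = 0.0325) and after quantile normalization (0.45, adjusted p = 0.0205), where 11 of 11 markers had the higher mean in EDL, against 8 of 11 as deposited. Without M0 and M1, 10 of 11 had the higher mean in EDL. Cx3cr1 then had 0.55 between EDL and TA, against 0.03 with all mice (adjusted p = 0.954). Itgam had 0.36, and 0.38 between GS and TA, against 0.11 between EDL and TA with all mice (adjusted p = 0.559). Itgam was at 6.86 in each EDL mouse, 6.89, 6.87 and 6.86 in GS mice and 6.89, 6.86 and 6.49 in TA mice. Only M3 lay apart. Schwann cells make the myelin of the peripheral nerve: of 6 measured markers none was called, 3 were not above the negative median on any array, and the list means stayed between 7.53 and 7.63 in all pools. In that list Pmp22, which other cells express too, was at 0.06 between EDL and TA (adjusted p = 0.644), Drp2 at 0.09 (adjusted p = 0.563), Dhh at 0.10 (adjusted p = 0.334) and Ncmap at -0.05 (adjusted p = 0.516). Fibroblast genes had list means of 7.04 to 7.06 in EDL, 6.63 to 6.99 in GS and 7 to 7.15 in TA. By the list mean every GS mouse lay below every TA mouse, though the nearest lay at 6.99 and 7. Of the 5 genes, 4 had the higher mean in GS than in TA, and only Dcn had the lower. None of the 5 was called between EDL and TA, with Lum at 0.42 (adjusted p = 0.242), Dcn at -0.46 (adjusted p = 0.519), Col1a2 at -0.06 (adjusted p = 0.501) and Col3a1 at -0.04 (adjusted p = 0.593). Dcn, which encodes the matrix proteoglycan decorin, had 7.11, 7.28 and 8.52 in GS mice and 9.61, 9.10 and 9.93 in TA mice, with no overlap, at -1.91 between GS and TA (adjusted p = 0.0819). The part that any of these cells, or the array quality of M0 and M1, has in the differences of the lineage genes was not tested.

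**Figure D5:**
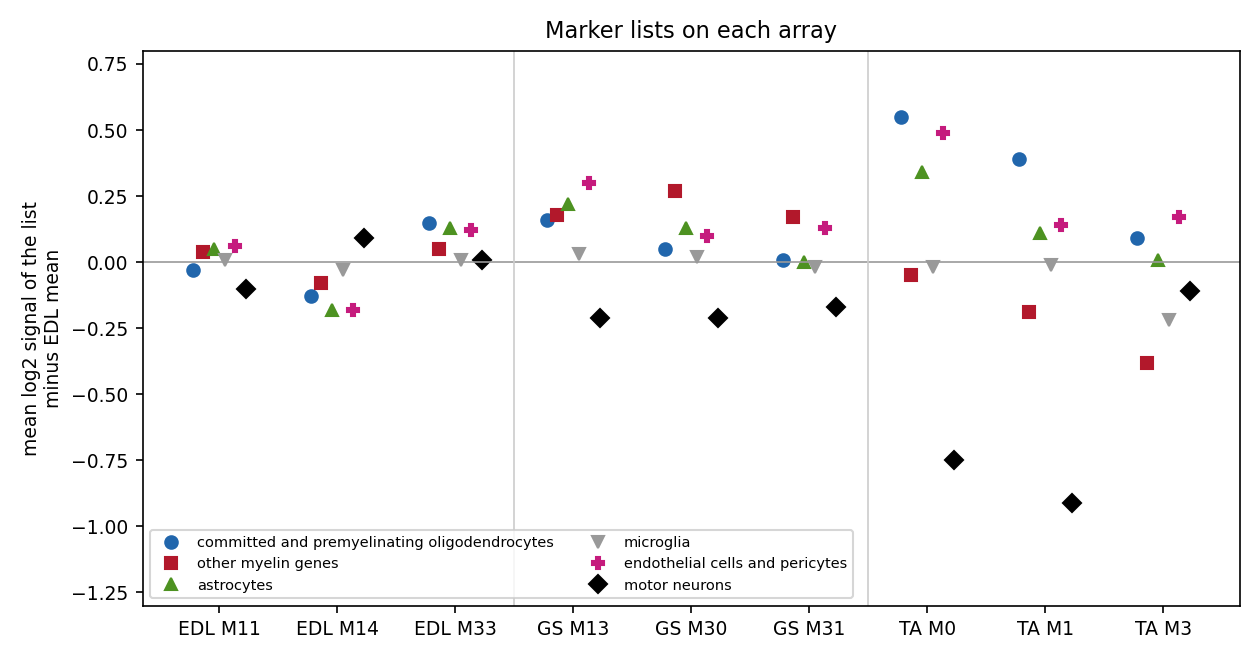
Mean log2 signal of 6 gene lists on each array, minus the mean of the 3 EDL arrays. MN markers lie lowest in TA mice M0 and M1 (-0.75 and -0.91) and at -0.11 in M3, the committed oligodendrocyte genes lie highest in M0 and M1 (0.55 and 0.39), and the other myelin genes lie lowest in M3 (-0.38).

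The genes whose signal ran closest to the lineage over the 9 arrays were taken from 16844 named genes above the negative median. To the mean of the 4 precursor genes these were Ltbp1 and Elobl (Pearson r of 0.99 each) and Kcnk10 (0.98). That mean follows Gpr17, whose signal spanned 1.90 over the arrays while those of Cspg4, Olig1 and Olig2 spanned 0.36 to 0.59. Elobl lay close to the negative control medians, which also rose in TA. It averaged 6.11 in EDL and 6.33 in TA, where these medians were 5.98 to 6.12 and 6.27 to 6.48. Ltbp1 averaged 6.78 in EDL, 6.92 in GS and 7.09 in TA (EDL-TA -0.31, adjusted p = 0.111), Elobl was at -0.22 (adjusted p = 0.141) and Kcnk10 at -0.28 (adjusted p = 0.133). To the mean of the 4 myelin genes the closest were 4930526A20Rik (0.94), Ciao2a (0.93) and Il17ra (0.92), with EDL-TA differences of 0.00, 0.00 and 0.18 (adjusted p = 1, 1 and 0.504). Without M0 and M1 the 6 correlations were 0.87 to 0.96. The arrays left had also served to pick these genes, so the values are no independent check.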

How the data were processed

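RNA of laser-captured MNs was hybridised to the GeneChip Mouse Transcriptome Assay. The log2 values were background-corrected, normalized and summarised per transcript cluster by the authors before they were deposited, with sst-RMA in Affymetrix Expression Console per the methods and with RMA and the Transcriptome Analysis Console per the labels. The sources used here give no settings. This processing left equal values on 2 or more arrays at 61.6% of the tested clusters. Values ran from 2.83 to 19.51 and array medians from 6.01 to 6.14, and no further scaling was applied. Precision is limited by how few arrays there are, since arrays give no read depth.

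Of 72688 probe sets, 6732 controls were left out (5222 negative, 1324 positive), and 65956 clusters were tested. A single symbol was attached to 30646 clusters, several to 2168, which were not named, and none to 33142. Names come from the platform annotation.

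Differences between pools were tested with lmFit, contrasts.fit and eBayes of limma 3.58.1 under R 4.3.3 (1.40 prior degrees of freedom, two-sided p, Benjamini-Hochberg adjustment over all clusters). The procedure was tested on simulated data. The genes and lists were chosen with earlier results of these data known. The genes named are the 9 of the lineage, of every other list up to 4 with the largest moderated statistic between EDL and TA and all at an adjusted p under 0.05, and the 3 closest in signal to each group; Sox10, Emid1, Pcdh15, Ppp1r14a, Opalin, Rgs5, Cx3cr1 and Itgam were added after their values were seen. Of the listed genes, 11 had no cluster of their own and were not counted. Alternatives were another scaling, another spread, array weights, a filter on dim clusters and leaving out each mouse. Leaving out M0 and M1 was chosen after seeing the data.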

Additional observations from a re-analysis of the deposited data

How the results depend on the processing

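Limma called 1 of the 8 genes (Gpr17) between EDL and TA, and 0 with the spread of the compared pools alone, with a plain unmoderated test or without TA mice M0 and M1, and 0 to 2 with each mouse left out, the 2 (Mog and Cnp) without M0. Between GS and TA the count was 0, and 0 to 1 with each mouse left out; over the 3 pools it was 0, and 0 to 1. Between EDL and GS it was 0 in every setting. Of all clusters, 3351 were called between EDL and TA, with 5033 after quantile normalization, 5764 with dim clusters left out, 1199 without M0 and M1, 458 in the unmoderated test, 4 with the spread of these pools alone and 201 to 10470 with each mouse left out. Between GS and TA 418 were called, with 782, 1283, 106, 5 and 0 under the same settings in that order and 0 to 7177 with each mouse left out. Between EDL and GS 0 were called, and 0 to 13 with each mouse left out. The direction of 6 small differences turned. EDL-TA of the Pdgfra cluster (-0.13) was 0.03 after quantile normalization. EDL-TA of Olig1 (-0.17) was 0.11 without M0 and M1, and its GS-TA (0.03) was -0.11 without M3, with -0.11 to 0.19 over the mice left out. EDL-TA of Olig2 (-0.02) was 0.07 with arrays centred on their medians, 0.03 after quantile normalization, 0.01 with array weights, 0.06 without EDL mouse M14 and 0.02 without M3, with -0.07 to 0.06 over the mice left out. EDL-GS of Cnp (-0.03) was 0.01 with centred arrays and 0.01 without EDL mouse M11, with -0.10 to 0.01 over the mice left out. EDL-TA of Myrf, a listed gene outside the 9, was 0.03 without M0 and M1. Scaling also moved the balance of all clusters: at an unadjusted p under 0.05, 6062 clusters had a higher and 9004 a lower mean in EDL as deposited, 9780 and 6103 with centred arrays, and 9685 and 6915 after quantile normalization. The cause of these changes was not tested. No paired analysis was possible because no mouse number is shared between pools. The mean of all clusters of a symbol was not run as an alternative, since each of the 9 symbols has 1 cluster.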
